A study of Caenorhabditis elegans with 2 samples.

Results

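Of the 30000 regions in the pooled LIN-13 list, 349 had their summit within 200 bp of an annotated nuclear tRNA gene, and these are the regions described here. They were chosen by position alone, from the summit that the authors' peak caller gave and the tRNA genes of the WBcel235 annotation (the ce11 build), so neither their rank nor their agreement between replicates was used. They were 1.16% of the pooled list. LIN-13 has zinc fingers and is counted among the synMuv B proteins, a group known for repressing genes in the worm's somatic cells. The data were ChIP-seq from whole *Caenorhabditis elegans* embryos of mixed stage and mixed sex, of strain OP51, which has the genotype unc-119(ed3) III and carries the transgene wgIs51, from which an eGFP-tagged LIN-13 is made. Both libraries, biological replicates 1 and 2, came from this 1 group, so the 2 samples give no comparison between conditions and no test across samples. The labels give lin-13 as the antibody target and name eGFP-lin-13 as the precipitated protein. Whole embryos were used, so cell types that differ in LIN-13 at these genes cannot be told apart.

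tRNA genes are transcribed by RNA polymerase III from promoters that lie inside the gene. The A box and the B box, which later form part of the folded tRNA, are bound by the factor TFIIIC. TFIIIC places TFIIIB just upstream of the first base, and a run of T after the gene ends transcription. Worm tRNA genes are short, occur in many identical copies, and lie alone or inside introns of protein-coding genes.

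The sequences below, from the RefSeq WBcel235 genome, show the B box at 6 members in the IDR list, and 1 member outside it whose B box is altered. Each runs 5′ to 3′ on the strand of the gene, from 30 bases before it to 15 bases after it. Capitals mark the B box core, searched on the gene's strand as GTTCNANNC. The first 5 are from the 12 highest-ranked members, K11H12.t1 is the single gene for selenocysteine tRNA, and Y40H7A.t1 was chosen after its values were seen because it can be set beside C06G1.t1.
C06G1.t1 (His, chrX:16634815-16634931, minus strand): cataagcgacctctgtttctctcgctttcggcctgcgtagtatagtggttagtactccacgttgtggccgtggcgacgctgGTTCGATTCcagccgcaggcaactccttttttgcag
R04D3.t2 (Val, chrX:13307004-13307121, plus strand): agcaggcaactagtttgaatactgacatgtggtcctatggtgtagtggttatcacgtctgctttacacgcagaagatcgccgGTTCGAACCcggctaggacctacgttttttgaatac
F57F5.t1 (Ile, chrV:12002146-12002275, plus strand): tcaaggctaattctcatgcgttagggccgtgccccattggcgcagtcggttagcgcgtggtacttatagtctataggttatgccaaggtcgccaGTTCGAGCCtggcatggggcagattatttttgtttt
C04A11.t1 (Leu, chrX:13665525-13665688, plus strand): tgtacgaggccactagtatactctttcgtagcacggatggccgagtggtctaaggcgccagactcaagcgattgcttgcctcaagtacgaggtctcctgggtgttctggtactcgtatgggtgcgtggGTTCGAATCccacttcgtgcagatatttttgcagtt
F29C4.t1 (Arg, chrIV:143952-144069, plus strand): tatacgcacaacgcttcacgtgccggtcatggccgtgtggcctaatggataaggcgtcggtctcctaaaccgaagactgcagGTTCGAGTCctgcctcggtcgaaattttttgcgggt
K11H12.t1 (Sec, chrIV:658151-658281, plus strand): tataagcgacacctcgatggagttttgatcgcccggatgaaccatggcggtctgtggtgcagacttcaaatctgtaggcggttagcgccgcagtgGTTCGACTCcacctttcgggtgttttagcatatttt
Y40H7A.t1 (His, chrIV:15187314-15187430, plus strand): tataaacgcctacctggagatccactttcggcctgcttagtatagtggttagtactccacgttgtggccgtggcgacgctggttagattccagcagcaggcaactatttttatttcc

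The core was present in 587 of the 612 tRNA genes, and a run of TTTT began in the 25 bases after the gene in 604. Among the members, 337 of 349 had the core in their nearest tRNA gene (96.6%), and in the IDR list, described next, it was 82 of 84. The 2 IDR members without it, C16B8.t2 (Pro) and F22F1.t6 (Met), were among the 12 highest members, at pooled ranks 270 and 366. Within 100 bp of the summit, on both strands, the core occurred at 75.6% of the members and at 8.14% of all pooled regions. This excess follows from how the members were chosen, within 200 bp of tRNA genes that nearly all hold the core. The 25 tRNA genes without the core had a pooled region in 14 cases, and 4 of them had one in the IDR list (16.0%, interval 4.54 to 36.1%, against 15.5% of the genes with the core). Of these 4, C16B8.t3 shared the region of C16B8.t2. Y22D7AL.t3 was reached by a region with its summit inside the neighbouring Y22D7AL.t4, which holds the core. Away from tRNA genes, 2177 pooled regions held the core within 100 bp of the summit, and 4.73% of these were in the IDR list, near the 4.89% of all pooled regions away from tRNA genes. The core was thus found in nearly all tRNA genes, in and outside the IDR list, and the genes without it were too few to show a difference.

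The IDR list, which the authors derived from the replicate and pooled lists by the irreproducible discovery rate, consisted of the first 1534 ranks of the pooled list by signal (column 7, the peak caller's value, which was used only to rank regions within 1 list). It took in 84 of the 349 regions at tRNA genes, which is 24.1% (95% exact binomial interval 19.7 to 28.9%). Of all pooled regions, 5.11% were in the IDR list. The tRNA regions thus made up 5.48% of the IDR list and 1.16% of the pooled list. The intervals cover counting over regions only, and neighbouring tRNA genes are not independent.

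Regions at tRNA genes were found from place 238 of the pooled list to near its end, and they were most frequent just above the limit of the IDR list. None of the first 237 regions was at a tRNA gene. They were 2.40% of ranks 1 to 500 (12 regions), 5.60% of ranks 501 to 1000 (28 regions) and 8.24% of ranks 1001 to 1534 (44 regions). Their share then fell to 3.75% at ranks 1535 to 3000 and to 0.44% at ranks 20001 to 30000. Their median rank was 4298, and the quartiles were 1632 and 13428.

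**Figure D1:**
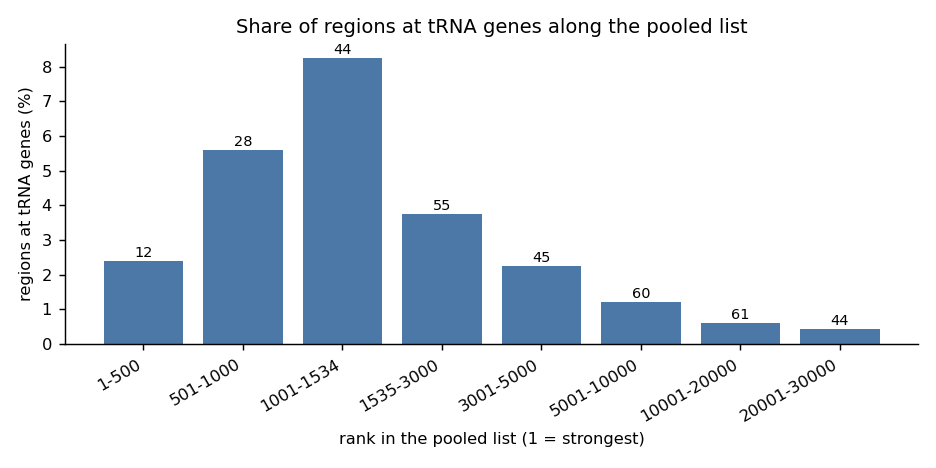
Share of regions at tRNA genes (%, vertical axis) in 8 blocks of rank of the pooled list (horizontal axis, rank 1 is the strongest); the number over each bar is the count of such regions. The tallest bar, 8.24%, is the block of ranks 1001 to 1534, the last block that the IDR list reaches.

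Genes for other small RNAs were placed beside them by the same distance rule. snoRNA genes, whose products guide the modification of rRNA, had 152 regions, of which 63 were in the IDR list (41.4%, interval 33.5 to 49.7%). snRNA genes, for the RNAs of the spliceosome, had 43 regions with 13 in the IDR list (30.2%, interval 17.2 to 46.1%). miRNA genes had 68 regions with 7 in the IDR list (10.3%, interval 4.24 to 20.1%). The interval for tRNA regions lay below that for snoRNA regions and overlapped both others. No region was both at a tRNA and at a snoRNA gene.

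Counted over genes, 370 of the 612 tRNA genes had a pooled region within 200 bp (60.5%) and 95 had one in the IDR list (15.5%, interval 12.7 to 18.6%). The other 242 tRNA genes had none. The second share differed between the replicates, since 38 genes had a region in the first 1534 of replicate 1 (6.21%) and 113 in those of replicate 2 (18.5%). tRNA genes lie close together in places, and when genes less than 500 bp apart were joined, 83 of 516 loci had an IDR region (16.1%). Loci of 2 or more genes had one in 16 of 74 cases (21.6%) and loci of 1 gene in 67 of 442 (15.2%), with overlapping intervals (12.9 to 32.7% and 11.9 to 18.8%).

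The regions at tRNA genes stood higher in replicate 2 than in replicate 1. A replicate's region was matched when its summit lay within 100 bp of the pooled summit. Replicate 1 held a match for 192 members (55.0%; 36.1% of all pooled regions had one) and replicate 2 for 281 (80.5%; 61.7% of all pooled regions). A match in both was found for 160 members, and 36 had none in either. Replicate 2 matched more of all pooled regions too, so these counts alone do not place the members higher in it. The median rank of matched members was 5045 in replicate 1 and 2985 in replicate 2. Over all matched pooled regions it was 8587 and 10809.5.

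Among the strongest ranks the replicates were further apart. Of the members, 35 (10.03%) matched a region in the first 1534 of replicate 1, where 4.9% of all pooled regions did. In replicate 2 this was 100 members (28.7%), where 4.94% of all pooled regions did. In both replicates it was 26 members (7.45%), where 2.65% of all pooled regions did. Both shares of the members were above the background, and the share in replicate 2 was the larger (intervals 7.09 to 13.7% and 24.0 to 33.7%). The 2 shares are over the same members, and the intervals do not measure the spread between libraries.

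The same held within the IDR list. All 84 IDR members had a match in replicate 2 and 77 had one in replicate 1. Their median rank was 1817 in replicate 1 (from 126 to 27052) and 728.5 in replicate 2 (from 130 to 2030). In the first 1534 of replicate 2 were 80 of the 84, and in those of replicate 1 there were 29. Of the 77 matched in both, 67 ranked higher in replicate 2 (87.0%, interval 77.4 to 93.6%). Among the other IDR regions 676 of 1296 did (52.2%, interval 49.4 to 54.9%). At other small RNA genes the replicates lay closer, since the first 1534 of replicates 1 and 2 took in 36.2% and 37.5% of the snoRNA regions, and 27.9% and 32.6% of the snRNA regions. The replicates' lists also differed in width, with a median of 220 bp in replicate 1 and 316 bp in replicate 2. Whether width, depth or a feature of 1 library had a part in the gap was not tested.

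**Figure D2:**
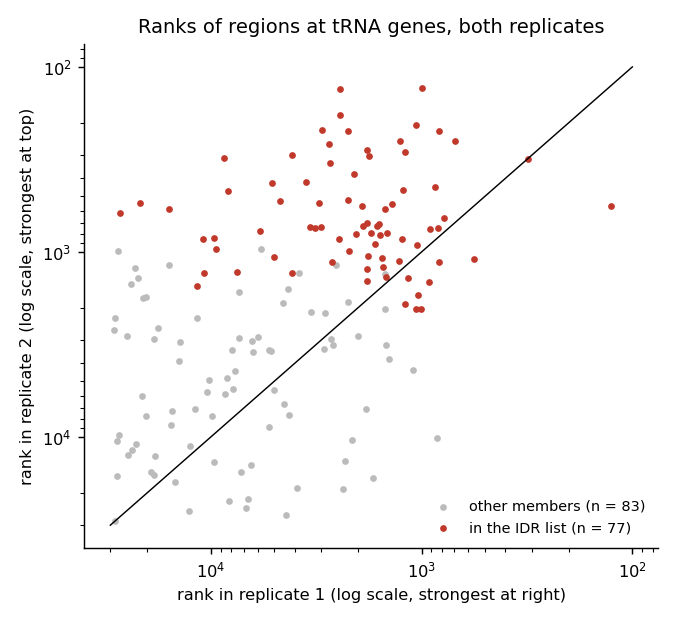
Rank in replicate 1 (horizontal, log scale) against rank in replicate 2 (vertical, log scale) of the 160 regions at tRNA genes matched in both lists, with the strongest ranks at the right and top; the line marks equal ranks. Of the 77 red points, those in the IDR list, 67 lie above the line, as do 55 of the 83 grey points, the other members.

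The 12 highest members had pooled ranks of 238 to 471. Of these, 9 were on the X chromosome. Their ranks ran from 130 to 567 in replicate 2, with all 12 among its first 1534, and from 126 to 2966 in replicate 1, with 8 among its first 1534. In 6 the summit was inside the tRNA gene, in 5 upstream and in 1 downstream. Only 2 lay in the promoter window of a protein-coding gene, here the stretch between 500 bp before and 200 bp after a start site.

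F17H10.t1, a glycine tRNA gene in an intron of snx-17 (a sorting nexin gene), had the highest of these regions, at chrX:13121165-13121448 with a pooled signal of 85.6. It ranked 992 in replicate 1, 130 in replicate 2 and 238 in the pooled list, with its pooled summit 24 bp after the first base. C16B8.t2, a proline tRNA gene with no coding gene around it and no B box core, ranked 2427 in replicate 1, 132 in replicate 2 and 270 pooled, at chrX:3970030-3970313. This is the 1 member of the 12 with its summit past the gene's end, by 5 bp. C06G1.t1, the histidine tRNA gene printed above, lies in an intron of C06G1.1 and ranked 827 in replicate 1, 221 in replicate 2 and 274 pooled, at chrX:16634723-16635006. Its pooled summit was inside the gene, 36 bp after the first base. All 3 ranked higher in replicate 2, and for C16B8.t2 the ranks were furthest apart.

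R04D3.t2, a valine tRNA gene between coding genes, ranked 2439 in replicate 1 and 183 in replicate 2, at chrX:13306915-13307198. C04A11.t1, a leucine tRNA gene of 119 bp, ranked 1270 in replicate 1 and 253 in replicate 2. F29C4.t1, an arginine tRNA gene in an intron of the collagen gene col-99, ranked 1063 in replicate 1 and 206 in replicate 2, at chrIV:143829-144112. These 3 had their summits within 26 bp of the gene's first base.

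A second kind of strong member lay upstream of its tRNA gene and beside the start of a protein-coding gene. F57F5.t1, an isoleucine tRNA gene, had its region at chrV:12001983-12002266, 51 bp before the gene and 328 bp upstream of the start of gcy-33, a guanylate cyclase gene. It ranked 313 in replicate 1 and 316 in replicate 2, nearly the same place in both. C28G1.t1, a glutamate tRNA gene in an exon of C28G1.2, had its region 70 bp before the tRNA gene and 27 bp from that coding gene's start. It ranked 126 in replicate 1 and 567 in replicate 2, and no other member ranked as high in replicate 1. K11H12.t1, for selenocysteine, had its region 84 bp upstream of the tRNA gene and 244 bp upstream of the start of K11H12.8, and ranked 2041 in replicate 1 and 797 in replicate 2. The summits of these 3 regions lay near both a tRNA gene and a coding start, and which of them the signal belongs to cannot be told apart.

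The largest gaps between replicates among IDR members were in 1 direction. F32B4.t1, a cysteine tRNA gene on chromosome I, ranked 27052 in replicate 1 and 620 in replicate 2. C30E1.t1, a glycine tRNA gene, ranked 21656 and 545, and Y22D7AL.t4, a glutamate tRNA gene, ranked 8707 and 312. In the other direction the gaps were smaller. After C28G1.t1 came F47E1.t1 (Gln), at 1003 in replicate 1 and 2029 in replicate 2, and T26C11.t1 (Glu), at 562 and 1096.

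Summits gathered at the start of the tRNA gene. Position was counted on the gene's strand from its first base, over genes with a median length of 72 bp. Of the 349 members, 135 had the summit inside the gene (38.7%), 145 upstream (41.5%) and 69 downstream (19.8%). Within 50 bp of the first base were 214 members (61.3%) and 68 of the 84 IDR members (81.0%). The IDR share was 31.8% for members within 50 bp (interval 25.6 to 38.5%) and 11.9% for those beyond it (interval 6.93 to 18.5%). It was 28.9% for summits inside the gene, 26.9% upstream and 8.70% downstream. The 6 downstream IDR members were at proline (3), asparagine (2) and glycine (1) tRNA genes.

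**Figure D3:**
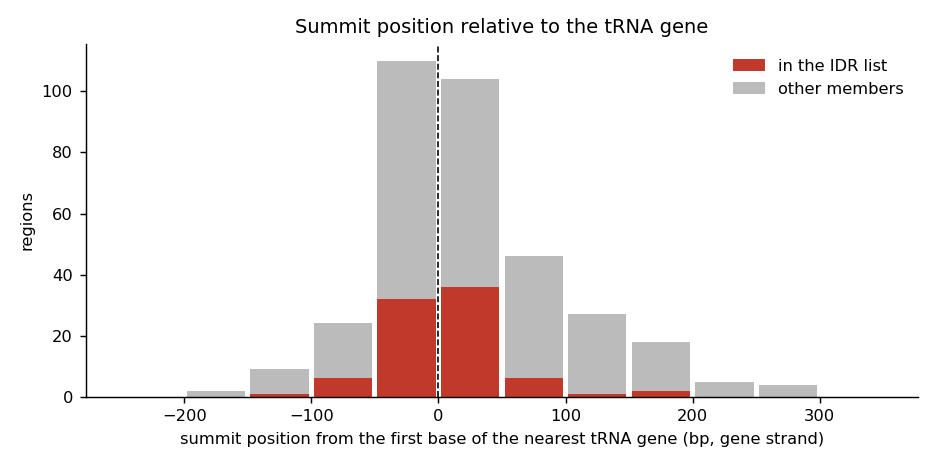
Number of regions at tRNA genes (vertical axis) by summit position from the first base of the nearest tRNA gene (horizontal axis, bp on the gene's strand, bins of 50 bp; the dashed line is the first base). Regions of the IDR list are red and other members grey, and 68 of the 84 red ones fall in the bins on either side of the line.

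The median position of IDR members was 5.5 bp after the first base, and in the replicates' own summits it was 5.0 bp in replicate 1 and 8.5 bp in replicate 2. Among the other members the medians were 21 bp pooled, -3.0 bp in replicate 1 and 30 bp in replicate 2. Summits of the same IDR member lay a median of 37 bp apart in the replicates, which sets how finely a position can be read. With a labelled size range of 150 to 350, given without a unit and read as bp, the upstream TFIIIB site, the A box and the B box are all within 1 fragment. The 4 regions nearest to the distance limit were outside the IDR list. K11C4.t1 (200 bp from its gene, rank 9060) and C40C9.t2 (196 bp, rank 11159) were just inside it, and F27B10.t1 (214 bp, rank 23353) and Y113G7B.t1 (218 bp, rank 28263) were just outside.

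The IDR members differed from most other IDR regions in their distance from coding promoters. Of the 84 IDR members, 15 lay in a coding promoter window (17.9%, interval 10.4 to 27.7%). Of the other 1450 IDR regions, 998 did (68.8%, interval 66.4 to 71.2%). Over all ranks it was 13.5% of the members and 22.3% of all pooled regions. At other small RNA genes, also over all ranks, it was 21.7% (snoRNA), 23.3% (snRNA) and 22.1% (miRNA), near the share of all pooled regions. The share of the members was lower (interval 10.1 to 17.5%), though the intervals of the other small RNA genes overlap it. For those genes the share within the IDR list was not counted. Whether the low share of IDR members is particular to tRNA regions is thus not known. Outside these windows 69 of 302 members were in the IDR list (22.8%), where 2.23% of all pooled regions outside them were. Inside them it was 15 of 47 members (31.9%), where 15.1% of all pooled regions inside them were. So the share of tRNA regions in the IDR list stood above its background both beside and away from coding starts.

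The tRNA gene nearest to a member was between protein-coding genes in 171 cases, in an intron of one in 173 and in an exon in 5. The IDR share was 26.3% for those between genes (interval 19.9 to 33.6%) and 22.0% for those in introns (interval 16.0 to 28.9%), which overlap. Intron examples are C37A2.t1 (Cys) in cye-1, the cyclin E gene, at rank 510, and sup-5 (Trp) in fli-1, at rank 1192. Mutant alleles of sup-5 are known in worm genetics as amber suppressors. It ranked 3404 in replicate 1 and 735 in replicate 2.

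The sequence around the summits was richer in G and C and held less masked (lower-case) sequence than around other strong regions. In the 200 bp around the summit the median GC content was 49.0% in IDR members, 44.5% in the other IDR regions and 40.5% in all pooled regions. Sequence masked over more than 50% of this window was found at 1 of the 84 IDR members and at 14.9% of the other IDR regions. The tRNA genes were themselves not masked over more than 50% of their length in any of the 612 cases. Their own G and C are part of these windows. Over all ranks, the median GC content was 48.0% at snoRNA genes, 47.0% at snRNA genes and 44.25% at miRNA genes. The median masked share over all ranks was 18.5% in members, 9.0% at snoRNA genes, 9.0% at snRNA genes and 23.0% at miRNA genes. High GC content and low masking were thus not particular to tRNA regions.

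tRNA genes are concentrated on the X chromosome of the worm. It held 276 of the 612 genes (45.1%), 143 of the 349 members (41.0%) and 46 of the 84 IDR members (54.8%), and 15.6% of all pooled regions. The share of members in the IDR list was 32.2% on X (interval 24.6 to 40.5%) and 18.4% on the autosomes (interval 13.4 to 24.4%). Of all pooled regions it was 5.94% on X and 4.96% on the autosomes. By autosome, IDR members were 6 of 35 on I, 8 of 38 on II, 11 of 47 on III, 5 of 44 on IV and 8 of 42 on V. Away from coding promoter windows it was 40 of 131 on X (30.5%) and 29 of 171 on the autosomes (17.0%), where of all pooled regions away from these windows it was 3.52% on X and 1.99% on the autosomes. The background there was thus also higher on X, in about the same proportion.

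Counted over genes and loci the gap was smaller. On X 51 of 276 tRNA genes had an IDR region (18.5%, interval 14.1 to 23.6%) and on the autosomes 44 of 336 (13.1%, interval 9.68 to 17.2%). Of loci it was 21.3% on X (interval 16.0 to 27.5%) and 12.5% on the autosomes (interval 8.97 to 16.7%). Both pairs of intervals overlap. A pooled region of any rank was found at 56.9% of the tRNA genes on X and at 63.4% of those on the autosomes.

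Within each replicate the gap in the share of members was also smaller than in the IDR list. In the first 1534 of replicate 1 were 11.9% of the X members (interval 7.08 to 18.4%) and 8.74% of the autosomal ones (interval 5.26 to 13.5%), against 6.28% and 4.64% of all pooled regions. In those of replicate 2 were 32.2% (interval 24.6 to 40.5%) and 26.2% (interval 20.3 to 32.8%), against 4.83% and 4.96% of all pooled regions. The intervals overlap in both replicates, and those of the IDR list miss each other by less than 1 percentage point. In replicate 1 the members' shares stood in about the same proportion as the background. In replicate 2 the members' share was higher on X, where that of all pooled regions was slightly lower. Overlapping intervals cannot decide whether X and the autosomes differ. A difference between them that is particular to tRNA regions is therefore neither shown nor excluded.

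**Figure D4:**
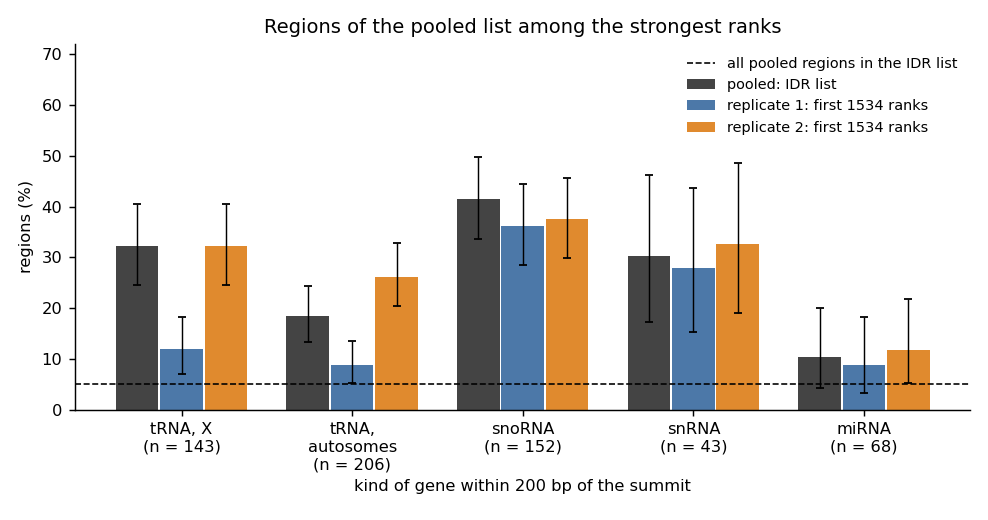
Share of pooled regions (%, vertical axis) in the IDR list (dark) or matched to the first 1534 ranks of replicate 1 (blue) or replicate 2 (orange), for regions at tRNA genes on X and on autosomes and at snoRNA, snRNA and miRNA genes; lines on the bars are 95% exact binomial intervals over regions, and the dashed line is the 5.11% of all pooled regions in the IDR list. The blue bar is the shortest of the 3 in both tRNA groups, at 11.9% on X and 8.74% on the autosomes.

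Every amino acid was represented among the strong regions. Amino acids came from the RefSeq annotation for 607 of the 612 genes, and anticodons were not used. Each of the 20 standard amino acids had 12 or more genes and at least 1 IDR member, and the single selenocysteine gene had one too. The share of genes with a pooled region ran from 6 of 12 (tryptophan) and 10 of 20 (histidine) to 9 of 13 (cysteine, 69.2%) over the 20, with a median of 61.0%. The share with an IDR region ran from 7.14 to 26.5%, with a median of 15.1%.

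Alanine and proline stood at the upper end, with 9 of 34 genes (26.5%) and 11 of 42 genes (26.2%) beside an IDR region. Phenylalanine with 1 of 14, and aspartate and glutamine with 2 of 27 each, stood at the lower end. In the first 1534 of replicate 1, 1 alanine and 1 proline gene had a region, and in those of replicate 2 it was 10 and 12. The upper end thus rested on replicate 2. All 20 amino acids had a gene among the first 1534 of replicate 2, and 15 had one in replicate 1.

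**Figure D5:**
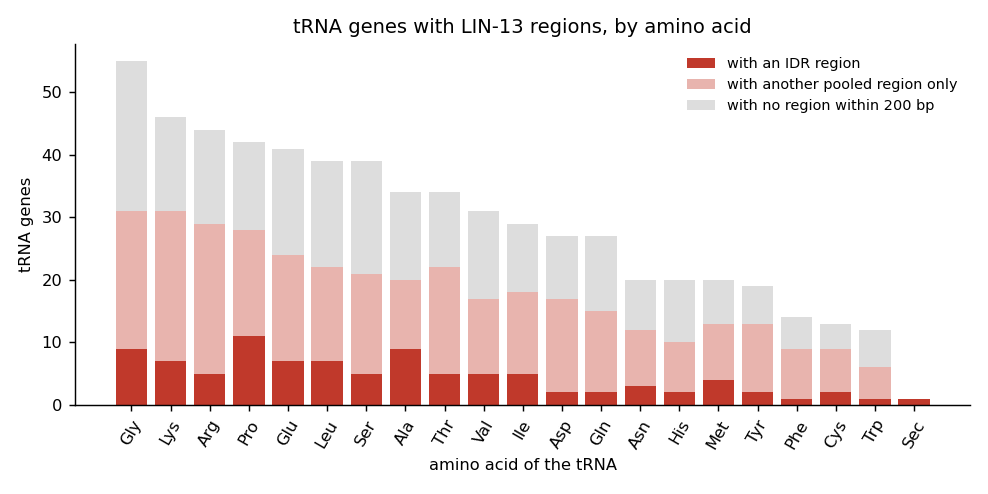
Number of tRNA genes (vertical axis) for each amino acid (horizontal axis, ordered by number of genes), split into genes with an IDR region within 200 bp (red), with another pooled region (pink) and with none (grey). The red part is tallest for proline, with 11 of 42 genes, and the last bar is the single selenocysteine gene.

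Many tRNA genes are exact copies of each other, and identical genes differed in their LIN-13 regions. The 612 genes had 200 distinct sequences. In 20 families of 10 or more identical genes, every family held genes with a pooled region and genes without one, and 19 held a gene with an IDR region. Of all genes with 10 or more copies 62.4% had a pooled region and 17.6% an IDR region. At such shares most families of this size would hold both kinds of gene. The share of a family with an IDR region ran from 0 to 33.3%. In the largest, 29 glycine genes, 18 had a pooled region and 5 an IDR region. In the family of 24 proline genes 8 had an IDR region, and in that of 15 alanine genes 5 did. Among the strongest ranks counted above, replicate 1 held 0 genes of each of these families. Replicate 2 held 7 of the glycine, 8 of the proline and 7 of the alanine genes. Other families had genes in both, such as the 11 histidine genes described next, with 2 in replicate 1 and 3 in replicate 2.

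The 11 histidine genes with the sequence of C06G1.t1 show the spread, and were chosen after their values were seen. C06G1.t1 itself ranked 274 and W09G10.t1, on chromosome II, ranked 1105, both in the IDR list. Y7A9D.t1 and Y65A5A.t4 ranked 2057 and 2305, and F28H6.t5 ranked 18554. The other 6, all on X, had no region within 200 bp. They were C49F5.t1 and, named for the same clone as F28H6.t5, the genes F28H6.t2, F28H6.t3, F28H6.t4, F28H6.t6 and F28H6.t7. Y40H7A.t1, which is printed beside C06G1.t1 above, has the same length of 72 bases and differs from it by G7T, C55A and C65A, counted from the first base of the gene with the base of C06G1.t1 first. The change C55A lies in the B box core. Its nearest region ranked 10437, with the summit 177 bp after the gene's first base. This summit lies past the gene's end, between it and Y40H7A.t2, another histidine gene, which holds the core. Which of these 2 genes the region belongs to cannot be told apart. C16B8.t2 and F22F1.t6, whose genes also lack the core, ranked 270 and 366. Whether the change in the core had a part in the rank was not tested.

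By copy number in the genome, 13 of 140 genes with 1 copy had an IDR region (9.29%, interval 5.04 to 15.4%). Of genes with 2 to 9 copies 26 of 153 did (17.0%, interval 11.4 to 23.9%). Of those with 10 or more 56 of 319 did (17.6%, interval 13.5 to 22.2%). The share was thus lowest for genes with 1 copy. These intervals overlap, which cannot decide whether the classes differ, and the difference itself was not tested. Reads from inside identical copies cannot be told apart except by their flanks, and the sources used here do not give how the authors' alignment placed such reads. The 140 genes with 1 copy have no exact full-length copy elsewhere, and 72 of them had a pooled region (51.4%). Parts of these genes can still be identical to other genes, as in Y40H7A.t1 beside C06G1.t1, so they are not free of this limit. On X 5 of 55 genes with 1 copy had an IDR region (9.09%), and on the autosomes 8 of 85 (9.41%). Of genes with 2 to 9 copies it was 17 of 66 on X (25.8%, interval 15.8 to 38.0%) and 9 of 87 on the autosomes (10.3%, interval 4.84 to 18.7%). Of those with 10 or more it was 18.7% on X and 16.5% on the autosomes. The intervals of X and autosomes overlap in all 3 classes, which cannot decide whether X and the autosomes differ within a class.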

How the data were processed

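The 2 LIN-13 ChIP-seq libraries were biological replicates of 1 group, numbered as in the labels. The 4 deposited ce11 lists were used: one for each replicate and a pooled one, each of 30000 regions, and an IDR list of 1534, which per the file headers was derived from the other lists. The ce10 lists and the control experiment were not used here. The signal that the authors deposited for each region (column 7) served only for ranks within a list and to describe single regions. Column 9 is a −log10 q value deposited by the authors, which was 3.51 in all IDR regions and ranks nothing. Of the aligner, caller, versions and thresholds, each is not given in the sources used here. Read counts were not part of the lists, so depth is unknown.

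Each summit was assigned to the nearest of 612 nuclear tRNA genes (Ensembl release 115, WBcel235). RefSeq names matched all 612 by identifier and coordinates. Coordinates count from 1. Python 3.11.15, pandas 2.3.3, numpy 2.4.6, SciPy 1.17.1 and matplotlib 3.10.9 were used, and the placing and matching functions were tested on simulated data. Intervals are exact binomial (Clopper-Pearson, 95%) over regions or genes and leave out error in the reads. Ranks of 2 replicates give no SD.

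The members and lists were chosen with earlier results of these data known. Named genes were the 12 highest members, the highest IDR member of each amino acid and chromosome, the 3 IDR members with the largest rank ratio between replicates in each direction and the 2 regions on each side of the distance limit. The letters of the B box core were widened after a narrower search had been seen. Sequences with 30 bases in common with a chromosome not printed here were passed over. Alternatives changed the distance (100 or 500 bp), the match (200 bp or any overlap), the promoter window, the IDR list and the replicate used.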

Additional observations from a re-analysis of the deposited data

How the results depend on the processing

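The share of members in the IDR list was 7.45% when its upper 767 regions were used (2.56% of all pooled regions) and 7.16% for IDR regions in the first 1534 of both replicates (2.63%). In the same order it was 11.9% and 9.09% on X, 4.37% and 5.83% on autosomes, and 4.90% and 4.41% of tRNA genes. Of all pooled regions it was 2.97% and 2.69% on X, and 2.48% and 2.62% on autosomes. In the upper 767 the gap between X and autosomes was thus wider for members than for the list, on 17 and 9 members. With 1 replicate's list in place of the pooled one, and its first 1534 regions in place of the IDR list, the lists held 259 and 329 members (replicates 1 and 2). The share of the list was 0.863 to 1.10%, of members among the first 1534 it was 13.9 to 30.7%, on X 15.7 to 32.9%, on autosomes 12.6 to 29.1%. Genes with a region were 45.3 to 55.2% and with a strong one 6.21 to 18.5%. Members inside the gene were 32.8 to 35.0%, upstream 38.3 to 49.0% and downstream 18.1 to 26.7%, and strong members upstream 44.6 to 63.9% and downstream 0 to 14.9%. Downstream IDR members were also 0% for regions strong in both replicates. At 500 bp, 1.45% of the list and 69.1% of genes were reached, with 31.1% of members inside and 26.5% downstream, and at 100 bp 53.6% of genes. Matches within 200 bp or by overlap were 63.3% and 64.2% in replicate 1, and 84.8% and 86.2% in replicate 2. A window of 1000 bp put 22.3% of members in a coding promoter. The core lay within 100 bp of the summit at 75.6% of members, and as GTTCGANNC, tried first, in 74.8% of their genes. The other 53 values stayed within their intervals or within 1.5 times. No paired analysis was possible because there is 1 group. Causes of these shifts were not tested, and depth is unknown.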
